A study of Mus musculus with 20 samples.

Results

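Medullary thymic epithelium of NOD mice was compared with that of BALB mice, both with an intact Aire gene, by reading every probe set of an expression array in each mouse. The arrays were those titled as NOD or BALB with wild-type Aire: 3 NOD mice and 4 BALB mice, 7 of the 20 arrays of the series. Per the labels, each thymus came from a male of 3 to 4.5 weeks, and sorting kept cells that were CD45 negative, positive for G8.8 (an antibody to the epithelial surface protein Epcam), bright for MHC class II and of intermediate Ly51. The other 13 arrays held Aire knockout NOD mice (3), Aire knockout BALB mice (4), and C57BL/6 (B6) mice with Aire intact (3) or knocked out (3). They supplied the spread between mice and, where named, a second reading of a gene. Of 45101 probe sets, 64 array controls were left out and 45037 were tested. A gene stands for its brightest probe set that carries 1 symbol, which gave 18193 genes. Counts over gene lists therefore rest on that probe set alone: of 484 list genes that did not pass on it, 17 had another probe set that did, 10 higher and 7 lower in NOD.

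Medullary epithelial cells display proteins of other organs to developing T cells, so that T cells that react to the body's own proteins are deleted or turned into regulatory cells. Aire, a nuclear protein of the MHC class II high subset, switches on a large share of these tissue-restricted genes. NOD mice develop autoimmune diabetes spontaneously and BALB mice do not, and the study set the strains and Aire genotypes side by side.

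Intensities had a median of 90.4 to 90.9 units in NOD mice and 88.1 to 90.9 in BALB mice. All values below are log2 intensity, and a difference is NOD minus BALB, so that 1 on this scale is 2-fold. The fold of a dim gene is understated, since the array has a floor. Over all probe sets, arrays correlated at 0.978 to 0.991 within NOD, 0.972 to 0.987 within BALB and 0.961 to 0.977 between the strains. Epithelial markers were bright in all 7 mice. The mean over 16 genes of mature medullary epithelium was 10.02 to 10.08 in NOD and 9.67 to 9.98 in BALB, so every NOD mouse lay above every BALB mouse. Signals of other cells were lower but differed between mice. The mean over 15 dendritic cell and macrophage genes was 8.42, 9.29 and 9.79 in NOD mice 1, 2 and 3, against 8.38 to 8.85 in BALB. The mean over 13 thymocyte and T cell genes was 6.72, 7.36 and 7.54 in the same NOD mice, against 6.65 to 7.01 in BALB. NOD mice 2 and 3 therefore stood above BALB for both lists and NOD mouse 1 did not. The 3′ over 5′ difference of the Gapdh controls, a sign of RNA integrity and amplification, was 2.18 to 2.43 in NOD and 2.24 to 3.04 in BALB, highest in BALB mouse 4. In sorted populations, a change in the share of cells that make an RNA and a change in RNA per cell cannot be told apart.

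Sequences of 3 promoters are shown here because genes of MHC class II, the molecule by which these cells were sorted, are read in both strains below. Each run is the 120 bases before the transcription start in RefSeq (GRCm38.p6, which is the B6 genome), 5′ to 3′ on the gene's strand, with capitals for the core of the Y box, an element of class II promoters bound by NF-Y.
H2-Aa (chr17:34287824-34287943, minus strand): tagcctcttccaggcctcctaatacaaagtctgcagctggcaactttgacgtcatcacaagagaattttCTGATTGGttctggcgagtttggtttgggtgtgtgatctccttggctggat
H2-Eb1 (chr17:34305747-34305866, plus strand): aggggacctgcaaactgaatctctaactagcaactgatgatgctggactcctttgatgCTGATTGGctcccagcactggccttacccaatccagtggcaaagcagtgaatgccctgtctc
H2-Eb2 (chr17:34325555-34325674, plus strand): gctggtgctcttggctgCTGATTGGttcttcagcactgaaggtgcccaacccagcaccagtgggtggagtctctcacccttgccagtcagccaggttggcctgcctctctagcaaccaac
The letters searched were CTGATTGG on either strand. They began 51, 62 and 103 bases before the start of H2-Aa, H2-Eb1 and H2-Eb2, and 1258 of 32851 promoters (3.83%) held them within 250 bases of the start. H2-Oa had a match as well, 46 bases before its start. H2-DMa and H2-Ob had none, which says only that these letters are not in that window. A match is a match of letters and not a measured binding site, and the promoters of NOD and BALB mice were not read.

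The strains differed at many genes. The limma test over all 20 arrays called 2764 probe sets at a Benjamini-Hochberg adjusted p below 0.05 (6.14%), of which 1116 (2.48%) were higher and 1648 (3.66%) lower in NOD. Of these, 909 (2.02%) differed at least 2-fold, 316 higher and 593 lower, and 42 at least 8-fold. By gene, 1507 passed (8.28%): 552 (3.03%) were higher in NOD and 955 (5.25%) lower. At 2-fold there were 491 genes (2.70%), 156 higher and 335 lower. Leaving out NOD mouse 2 or NOD mouse 3 lowered the count of probe sets to 1792 and 1799. Over all probe sets the median difference was 0.02. For the 491 genes, the B6 mean lay nearer to BALB in 343 (69.9%) and nearer to NOD in 148. Among the 335 genes lower in NOD it lay nearer to BALB in 253 (75.5%), and among the 156 higher in NOD in 90 (57.7%). These genes were chosen by the difference between NOD and BALB, and the same share over all genes was not taken. The sample codes of the B6 mice with Aire intact did not run together with those of any NOD or BALB mouse with Aire intact.

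**Figure D1:**
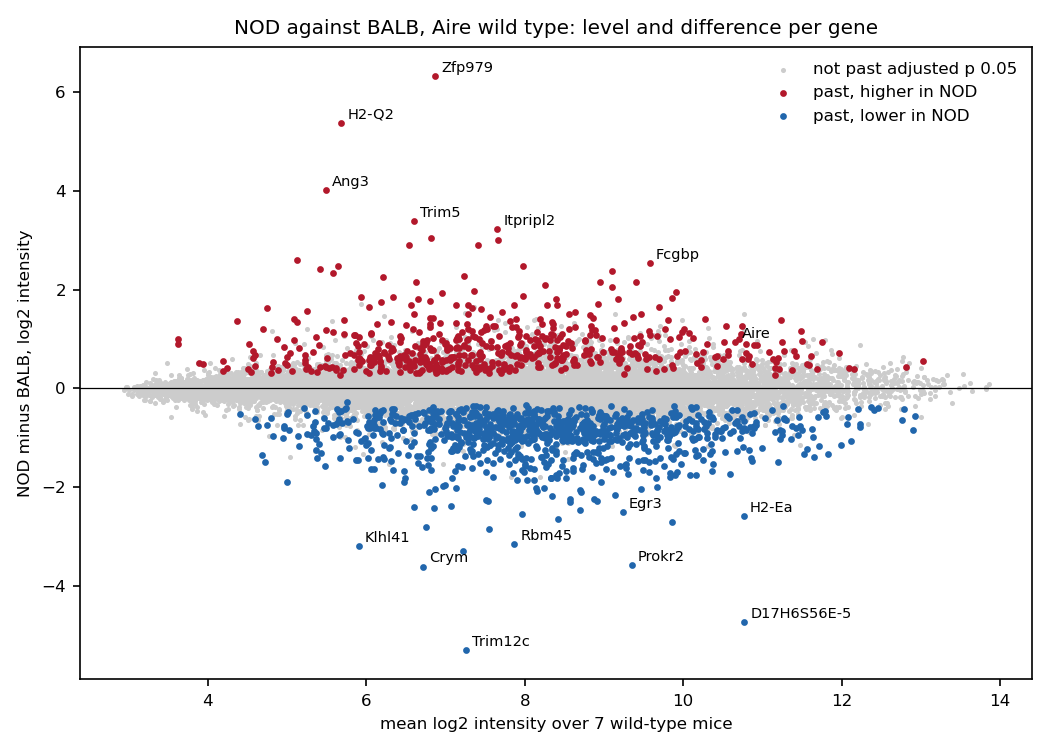
Each point is 1 of 18193 genes, with the mean log2 intensity over the 7 wild-type mice on the horizontal axis and NOD minus BALB (log2) on the vertical axis. Coloured genes passed an adjusted p of 0.05, red (552) higher and blue (955) lower in NOD; Zfp979, H2-Q2 and Ang3 lie highest and Trim12c and D17H6S56E-5 lowest.

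By each gene's brightest probe set, the largest difference was in Zfp979, which encodes a zinc finger protein. It read 10.76, 10.48 and 10.21 in the 3 NOD mice and 4.36, 4.10, 4.14 and 3.99 in the 4 BALB mice. The difference was 6.33 ± 0.18 (SE), 80.7-fold, with an adjusted p of 9.62e-14 by limma. The B6 mean of 3.94 was near the BALB level, so the high signal belonged to NOD among the 3 strains. A gene of similar name, Zfp982, read 8.35, 8.35 and 7.88 in NOD and 5.05 to 5.41 in BALB. Its other probe sets differed by 4.60 and 1.91 in the same direction, both past the threshold, and since some of these probe sets are of types that can match several transcripts, related zinc finger genes cannot be told apart by them.

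MHC genes held the next largest difference. H2-Q2, a class Ib gene of the Qa region, read 8.48, 8.86 and 8.94 in NOD and 3.43, 3.21, 3.45 and 3.41 in BALB, a difference of 5.38 ± 0.17 or 41.8-fold (limma adjusted p = 2.19e-13). The B6 mean was 9.88, so here BALB was the strain that stood apart, with values in the lowest 5% of all readings. Of 21 class I and processing genes measured, 3 were higher in NOD and none lower by their brightest probe sets (14.3% against 8.28% of all genes), and the list's median was 0.08. The other members higher in NOD were H2-T3, another class Ib gene (0.91 ± 0.15), and Psmb8, an immunoproteasome subunit (0.73 ± 0.16).

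The class I gene H2-D1, which encodes a classical molecule that shows peptides to CD8 T cells, gave readings that depended on the probe set. Its brightest read 13.09, 13.19 and 13.15 in NOD and 12.96 to 13.33 in BALB, a difference of 0.03 that did not pass (limma adjusted p = 0.931). Of its 8 other probe sets, 3 were lower in NOD. One differed by -6.92, another by -5.92 (limma adjusted p = 1.51e-15 and 4.97e-11), and the third read 7.23 to 7.70 in NOD and 12.68 to 13.56 in BALB (adjusted p = 5.21e-12). The one that differed most read 6.46, 6.43 and 6.27 in NOD, 13.01, 13.21, 13.41 and 13.59 in BALB and 6.64 in B6. The B6 means of the other 2, 6.06 and 7.70, were also at the NOD level. The remaining 5 lay between -0.29 and 0.26 and did not pass. The 3, the brightest and some of the remaining ones are of a type that can match several class I transcripts. Which transcript or allele each of these reads cannot be told apart, and this holds for the 0.03 as well.

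MHC class II genes were bright in both strains, with 1 large exception. H2-Ea encodes the alpha chain of the E molecule, and NOD and B6 are known to carry a null form of it. It read 9.24, 9.21 and 9.42 in NOD and 12.05, 12.05, 11.90 and 11.48 in BALB. The B6 mean was 9.23, at the NOD level. The difference was -2.58 ± 0.15 (limma adjusted p = 3.46e-09). A dimmer H2-Ea probe set separated the strains further, with 5.95, 5.91 and 5.34 in NOD against 13.70, 13.76, 13.72 and 13.61 in BALB, a difference of -7.96. The strain labels and H2-Ea therefore matched in all 7 mice.

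The partner chain H2-Eb1 read 13.24, 13.11 and 13.22 in NOD and 13.19, 13.19, 13.20 and 13.07 in BALB, overlapping between strains, with a difference of 0.03 ± 0.11. H2-Aa, the alpha chain of the A molecule, was 13.29 to 13.44 in NOD and 13.11 to 13.28 in BALB, a difference of 0.17 ± 0.12 that did not pass (adjusted p = 0.544). These readings are near the top of the scale, where arrays tend to compress differences. H2-Eb2, a less studied class II beta gene, was higher in NOD: 12.49, 12.05 and 11.90 against 11.17, 11.21, 11.19 and 10.40, a difference of 1.16 ± 0.18 (adjusted p = 0.000767). BALB mouse 4 was the lowest of the 7. H2-Ob, a chain of the peptide-editing molecule DO, was 0.39 ± 0.11 higher, and lost its call in 6 of the 7 refits that each left out 1 mouse (adjusted p up to 0.260). The invariant chain gene Cd74 differed by 0.72 ± 0.32 and did not pass (adjusted p = 0.227). In all, 2 of 15 class II genes were higher in NOD and 1 was lower (20% against 8.28% of all genes), with a median of 0.24.

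The genes of the Trim cluster, antiviral ubiquitin ligases that differ in number between inbred strains, were among the largest differences both ways. Trim12c was nearly at the floor in NOD, at 4.17, 4.25 and 4.24, and read 9.30, 9.32, 9.68 and 9.81 in BALB. The difference was -5.31 ± 0.16, 39.6-fold (limma adjusted p = 2.19e-13), and B6, at 9.36, was at the BALB level. Trim5 ran the other way, at 8.29, 8.59 and 8.77 in NOD and 4.96 to 5.38 in BALB (3.40 ± 0.21). Trim34a read 8.84 to 9.32 in NOD and 6.16 ± 0.90 (SD, n = 4) in BALB (difference 2.91 ± 0.35), and Trim30d was higher by 2.26 ± 0.36. A second, dim probe set of Trim34a passed in the opposite direction (-0.92), and a second, dim one of Trim12c did not pass (-0.23). Neighbouring Trim genes are near copies, so which copy each probe set reads cannot be told apart here. Of 29 genes at loci known to vary between inbred strains, 4 were higher and 6 lower in NOD (34.5% against 8.28% of all genes). Whether base differences under the probes contribute to any of these contrasts was not tested.

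Among other genes that were lower in NOD, D17H6S56E-5, a transcript of the MHC region, read 8.05, 8.16 and 7.99 in NOD and 12.69 to 12.93 in BALB (-4.73 ± 0.10, limma adjusted p = 1.51e-15), and a second probe set differed by -5.98. Crym, which encodes a thyroid hormone binding protein, read 4.75, 4.57 and 4.63 against 7.79 to 8.69 (-3.61 ± 0.19). Prokr2, a receptor for prokineticins, read 7.35, 7.66 and 6.90 against 10.78 to 11.08 (-3.59 ± 0.20). For all of these B6 was at or above the lowest BALB mouse, so NOD was the low strain, and the second probe set of Prokr2 gave -3.75. Pcdh17, a cadherin of neurons, followed the same order at -3.28 ± 0.15, with a second probe set at -0.81.

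In another set BALB was the high strain. Klhl41, a kelch protein of muscle, read 4.23, 4.04 and 3.97 in NOD, 7.17 to 7.44 in BALB and 4.53 in B6 (-3.19 ± 0.12). Rbm45, an RNA-binding protein, read 5.91 to 6.18 in NOD, 8.66 to 9.81 in BALB and 5.54 in B6 (-3.15 ± 0.26). Map3k7cl (-2.80 ± 0.26) had the same order. Prrc2c differed by -2.71 ± 0.23 on its brightest probe set, while its 5 others did not pass, the next brightest at 0.01. That difference therefore rested on 1 of 6 probe sets. A further probe set existed for 236 of the genes that passed at 2-fold. Of these 402 further readings, 108 (26.9%) passed in the same direction, 7 in the opposite direction, and 287 did not pass, 212 of these with the same sign.

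Further genes higher in NOD were Ang3, a ribonuclease of the angiogenin family (6.97, 7.83 and 8.57 against 3.74 to 3.81 in BALB, 4.02 in B6), and Itpripl2 (3.24 ± 0.17, with B6 at the NOD level). The noncoding host gene Snhg14 (3.04 ± 0.32) and Fcgbp, a mucus protein of goblet cells (10.82 to 11.26 against 8.35 to 8.68), were also higher. Both were closer to NOD than to BALB in B6, but other probe sets of Snhg14 gave 0.41 and -0.14 and did not pass. Ear3, an eosinophil-associated ribonuclease, read 8.78, 9.50 and 9.89 in NOD and 6.17 to 8.01 in BALB. It was the 1 of the 28 largest that lost its call when a mouse was left out, with an adjusted p of 0.060 without NOD mouse 3. The 14 largest in each direction were chosen by size among genes that passed and whose mice did not overlap, so their separation is a description. Over all probe sets, 7411 (16.5%) did not overlap between the strains.

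**Figure D2:**
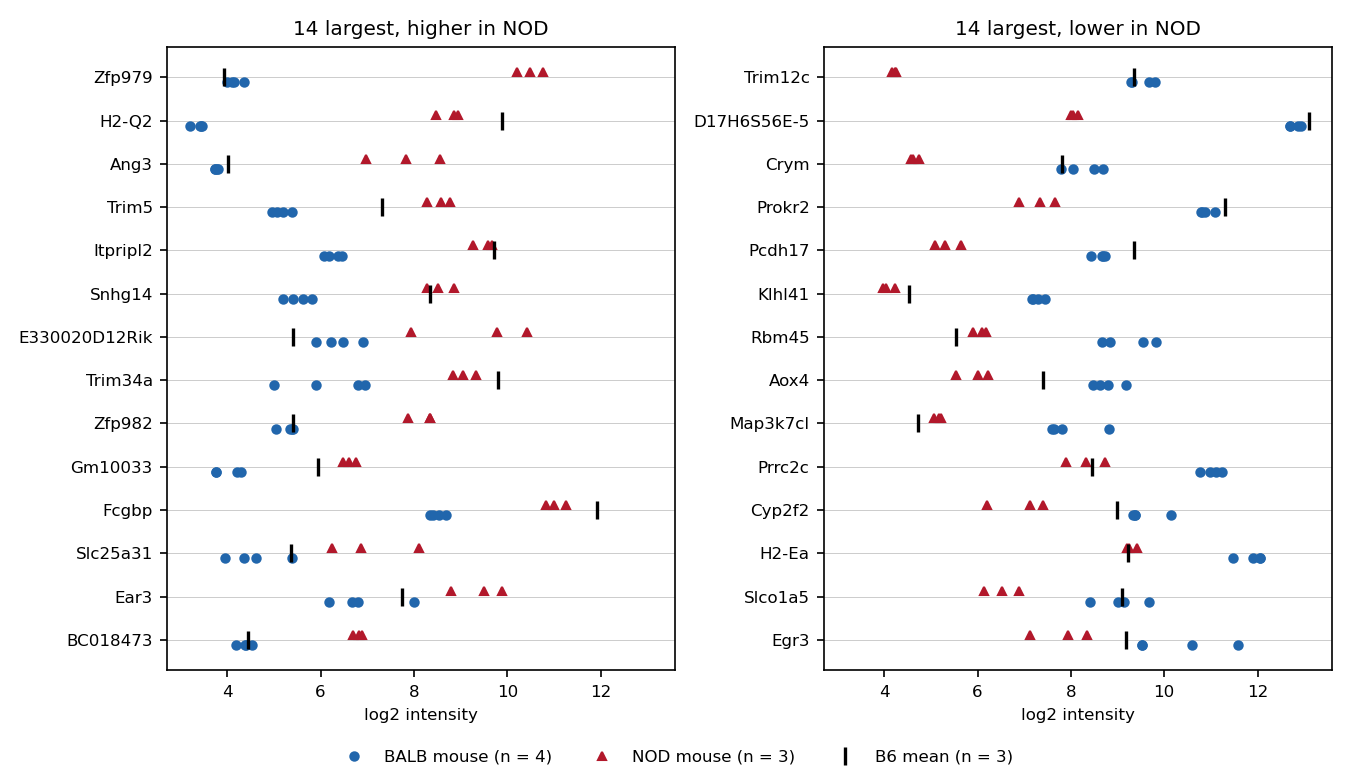
Log2 intensity (horizontal axis) of the 14 genes with the largest differences in each direction, with 1 triangle per NOD mouse (3), 1 circle per BALB mouse (4) and a bar at the B6 mean (3 mice). The B6 bar lay nearer to BALB in 16 of the 28 genes and nearer to NOD in 12.

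Aire itself read 11.45, 11.16 and 10.96 in NOD and 10.48, 10.53, 10.71 and 9.31 in BALB. The difference of 0.94 ± 0.24 passed (limma adjusted p = 0.0264), with BALB mouse 4 well below the rest. The call was lost without NOD mouse 1 (0.81, adjusted p = 0.118) or NOD mouse 2 (0.95, adjusted p = 0.0767), and the size ranged from 0.62 to 1.09 over the 7 refits. The probe set read 11.91 in NOD and 10.96 in BALB knockout mice, so it does not check the genotype, and it showed a similar strain difference there (0.95, adjusted p = 0.0179). None of 18 genes for partners of Aire passed by limma (7 at an unadjusted p under 0.05, 3 higher and 4 lower), and their median was 0.02. Of the 16 genes of mature medullary epithelium, 4 were higher and 1 lower in NOD (31.2% against 8.28% of all genes), with a median of 0.27. Without 1 mouse, 1 to 3 of the 16 were higher and at most 1 lower.

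RANK and NF-kB signalling drives the maturation of these cells, and 4 of 25 genes on that list were higher in NOD and none lower (16.0% against 8.28% of all genes), with a median of 0.17. Tnfrsf11a, which encodes RANK, was 8.99 to 9.26 in NOD and 8.45 to 8.95 in BALB (0.52 ± 0.14). It lost its call in 5 of the 7 refits that each left out 1 mouse (adjusted p up to 0.126). Tnfrsf11b, the soluble decoy receptor osteoprotegerin, was 10.91 to 11.29 against 9.59 to 10.52 (0.94 ± 0.23), and lost its call without BALB mouse 1, BALB mouse 2 or NOD mouse 1 (adjusted p up to 0.0943). Traf1, a signalling adaptor, was 8.71, 9.05 and 9.19 against 7.91 to 8.24 (0.88 ± 0.18, adjusted p = 0.00649) and kept its call in all 7 refits. Nfkbib, an NF-kB inhibitor, was higher by 0.44 ± 0.10, and not past the threshold without NOD mouse 2 (adjusted p = 0.0784). A second probe set of Tnfrsf11a had the opposite sign (-0.29) and did not pass. Second probe sets of Tnfrsf11b (0.12) and Nfkbib (0.18) did not pass either, while that of Traf1 did (1.06).

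Thymic tuft cells are a rare epithelial type of the medulla that uses the taste-signalling channel Trpm5 and secretes Il25. Of 9 measured marker genes, 3 passed, all lower in NOD (33.3% against 8.28% of all genes). Trpm5 read 6.94, 6.88 and 6.80 in NOD and 8.29, 8.04, 8.63 and 9.42 in BALB (-1.72 ± 0.36, limma adjusted p = 0.00657), and its other probe sets gave -1.68 and -1.40, both past the threshold. Avil, which encodes the actin-binding protein advillin, read 7.04, 7.25 and 7.25 against 8.33 to 9.19 (-1.63 ± 0.28). The cytokine Il25 read 5.07, 5.06 and 5.27 against 6.43, 7.24, 6.47 and 6.90 (-1.63 ± 0.24).

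These 3 genes kept their calls without each mouse in turn. The kinase gene Dclk1 (-1.17, adjusted p = 0.0583) and Chat, for acetylcholine synthesis (-0.72, adjusted p = 0.0546), did not pass, although no NOD mouse overlapped a BALB mouse for either. Of the 8 other probe sets of Dclk1, 4 were lower and passed, and 4 did not pass (-0.78 to -0.02). The one that differed most read 6.41, 6.06 and 6.46 in NOD and 7.78 to 9.33 in BALB (limma adjusted p = 0.000380). The others that passed gave -1.68, -1.47 and -1.11 (adjusted p = 0.00324, 0.00295 and 0.0251), and the last of these lost its call in 4 of the 7 refits. Pou2f3, the transcription factor of tuft cells, gave 0.10. The mean over the 9 genes was 6.87 to 7.08 in NOD and 7.53 to 8.20 in BALB, and the list's median was -0.72 against 0.02 for all genes. B6 was at the BALB level for Trpm5 (8.65) and Avil (8.72) and nearer to NOD for Il25 (5.64). Within the 3 mice whose sample codes ran together (NOD mouse 1, BALB mice 3 and 4), the median was -1.61 and 1 gene passed.

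**Figure D3:**
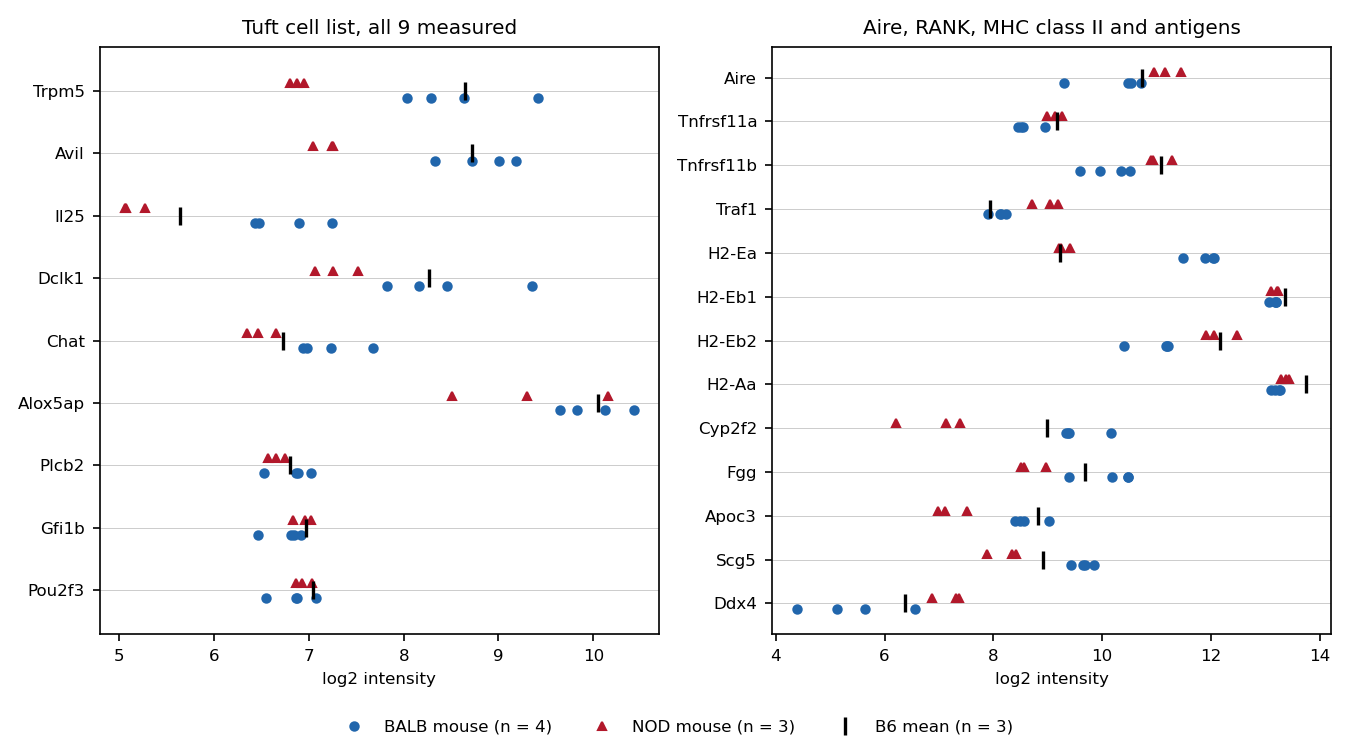
Log2 intensity (horizontal axis) per mouse for the 9 measured tuft cell genes (left) and for Aire, RANK pathway, MHC class II and tissue-restricted genes (right); triangles are NOD mice (3), circles BALB mice (4) and the bar the B6 mean (3). Trpm5, Avil and Il25 did not overlap between the strains, and H2-Eb1 did.

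Chemokines guide thymocytes and dendritic cells through the medulla, and 1 of 27 was higher and 4 were lower in NOD (18.5% against 8.28% of all genes). Cxcl11, induced by interferon, was lower by 1.46 on the log2 scale (SE 0.22, adjusted p = 0.000380), and a second probe set gave -1.13. For Cxcl9, also induced by interferon, a probe set other than its brightest was 1.05 ± 0.15 higher in NOD (limma adjusted p = 0.000336). It is not in these counts. Ccl25, which draws thymocyte precursors and is made mainly by cortical epithelium, differed by -1.18 ± 0.23. Ccl27a, a skin chemokine, was 1.09 ± 0.14 higher. Ccl9 (-0.83 ± 0.24) and Ccl2 (-0.69 ± 0.20) each lost the call in 6 of the 7 refits (adjusted p up to 0.194 and 0.145). Of 11 cortical genes 2 (18.2%) were lower: Ccl25 was read again on that list, beside the stem cell factor gene Kitl (-1.02 ± 0.25), which lost its call in 4 of the 7 refits (adjusted p up to 0.114).

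Of 32 interferon-stimulated genes, 2 were higher and none lower (6.25% against 8.28% of all genes), with a median of 0.03. These counts leave out a probe set of Iigp1 that is not its brightest and was 2.02 ± 0.39 higher in NOD (limma adjusted p = 0.00343). Gbp2, a guanylate-binding protein, read 9.08, 10.59 and 11.00 in NOD and 8.18 to 8.51 in BALB (1.82 ± 0.40). NOD mice 2 and 3, in which the dendritic cell and T cell markers were also high, were the high ones, and without either of them the adjusted p was 0.0592 and 0.0746. Within the 3 mice of 1 code run the difference was 0.58. With the mean of the dendritic cell and macrophage genes as a covariate, 105 of the 117 named genes that passed kept their calls. The other 12 did not. Gbp2 was among the 117 in that fit, but its own value there is not given here. The cause of its high readings in NOD mice 2 and 3 was not tested.

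Thymocyte genes moved in the same mice. Of 13, 3 were higher in NOD (23.1% against 8.28% of all genes): Thy1 (1.18 ± 0.28), Dntt (1.08 ± 0.31) and Cd4 (1.08 ± 0.29). Cd4 read 7.95, 9.27 and 9.69 in NOD and 7.74, 7.78, 7.75 and 8.31 in BALB, so NOD mouse 1 lay inside the BALB range. None of the 13 passed without NOD mouse 2, or without NOD mouse 3 (adjusted p for Thy1 up to 0.0795). None of 15 dendritic cell and macrophage genes passed by limma (3 at an unadjusted p under 0.05, all higher), nor did any of 8 B cell genes (2 at that level), 9 endothelial genes (3) or 3 red blood cell genes (1). The median of the dendritic cell and macrophage list was 0.39 and depended on single mice. It was 0.03 without NOD mouse 3, 0.24 without BALB mouse 3, 0.74 without NOD mouse 1 (when 2 genes passed) and -0.19 within the 3 mice of 1 code run, and 1 gene passed without NOD mouse 3 or BALB mouse 2. Of 8 fibroblast genes, Col1a2 was 0.70 ± 0.16 higher, not past the threshold without NOD mouse 2 (adjusted p = 0.0756). Of 17 cell cycle genes, 2 were higher (11.8% against 8.28% of all genes): Mcm6 (1.23 ± 0.27) and Mcm2 (0.42 ± 0.10), both parts of the replication helicase. The median of the cell cycle list was 0.45. Without BALB mouse 4 the median was 0.13 and 1 gene was higher. Mcm2 lost its call in 4 of the 7 refits (adjusted p up to 0.0865).

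Tissue-restricted genes, the antigens of other organs, differed in both directions. Over the 16 lists of organ genes, 256 genes were measured; 11 were higher and 26 lower in NOD (14.5% against 8.28% of all genes), and the median was -0.02. Liver and plasma proteins gave 2 higher and 4 lower of 23 (26.1% against 8.28%). Fgg, a fibrinogen chain, read 8.51, 8.97 and 8.57 in NOD and 10.48, 10.48, 10.19 and 9.40 in BALB (-1.45 ± 0.23, limma adjusted p = 0.000868). Hp, for haptoglobin, read 7.19, 8.01 and 8.32 against 9.11 to 9.57 (-1.55 ± 0.31). Apoc3, an apolipoprotein, read 6.99 to 7.52 against 8.41 to 9.03 (-1.42 ± 0.26). These kept their calls in all 7 refits, whereas the fibrinogen gene Fga (-1.41) had an adjusted p of 0.0530 without NOD mouse 3.

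Lung genes gave 1 higher and 3 lower of 10 (40% against 8.28% of all genes). Cyp2f2, a cytochrome P450 of club cells, read 6.20, 7.13 and 7.39 in NOD and 9.33, 9.38, 9.37 and 10.16 in BALB (-2.65 ± 0.28, 6.28-fold). The secretoglobin Scgb1a1 (-1.29 ± 0.31) and surfactant protein gene Sftpd (-0.91 ± 0.20) were lower too, and each lost its call without NOD mouse 1 (adjusted p = 0.110 and 0.0574). Surfactant gene Sftpb was 0.56 ± 0.12 higher, with an adjusted p of 0.0630 without NOD mouse 3. Epidermal genes gave 5 lower of 22 and none higher (22.7% against 8.28% of all genes). These were the barrier genes Spink5 (-1.53), Dsc1 (-1.53), Lor (-1.49), Krt16 (-1.38) and Krt10 (-1.22). None of the 22 passed without BALB mouse 4, or without NOD mouse 1, when their median was -0.14 and -0.16.

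Autoantigens of diabetes and islet hormones gave 1 higher and 1 lower of 22, with a median of 0.00. That share, 9.09%, was near the 8.28% of all genes. Scg5, a chaperone of prohormone processing, read 8.34, 8.42 and 7.89 in NOD and 9.42 to 9.86 in BALB (-1.44 ± 0.28, adjusted p = 0.00357). Reg3a was 0.63 ± 0.11 higher. Iapp, the islet amyloid polypeptide that beta cells release with insulin, differed by 0.36 on its brightest probe set (adjusted p = 0.687). A dimmer one read 7.10, 7.82 and 7.48 in NOD, 9.35 to 10.06 in BALB and 10.88 in B6 (-2.38 ± 0.31, limma adjusted p = 9.34e-05), and the remaining pair, both at -0.62, did not pass. Ddx4, a helicase of germ cells, was the largest increase among the organ lists, at 7.38, 7.32 and 6.88 in NOD against 6.56, 5.64, 5.13 and 4.39 in BALB (1.76 ± 0.34). Of 14 candidate genes of Idd loci, the regions linked to diabetes in NOD, 1 was lower and 1 higher (14.3% against 8.28%). Arntl2, a clock transcription factor, read 7.51 to 8.38 in NOD, 9.24 to 9.69 in BALB and 5.69 in B6 (-1.39 ± 0.20), with a second probe set at 0.24 that did not pass, and Tlr1 was 0.55 ± 0.11 higher. The other organ lists gave few calls, from 0 to 17.6% of their measured genes in either direction, against 8.28% of all genes. Lower in NOD were 1 of 19 intestinal genes (Vil1, the villus actin bundler, -1.01), 3 of 20 genes of striated muscle (Myl1, Tnnt2 and Tnni3), 2 of 18 of the nervous system, 2 of 18 of testis and 2 of 17 of salivary and lacrimal glands. Tnnt2 and Tnni3 lost their calls in 3 and 5 of the 7 refits that each left out 1 mouse (adjusted p up to 0.144 and 0.118). Of the pairs in the nervous system, testis and glands, Ldhc, Odf2, Car6, Mucl1, Mbp and Tac1 lost their calls in 5, 4, 6, 4, 4 and 2 of them (adjusted p up to 0.155). No testis gene was lower without BALB mouse 2 or without any one of the 3 NOD mice, no gland gene without BALB mouse 1 or 2 or NOD mouse 1 or 2, and no nervous system gene without NOD mouse 1. Lower as well were Gp2 of exocrine pancreas (-1.55), Defb1 of male accessory glands (-0.96) and Umod of kidney (-1.45). Higher in NOD, 1 per list, were Ctrl of exocrine pancreas (0.42), Tff1 of stomach (0.41), Prol1 of glands (1.15) and Hsd3b1 of endocrine organs (0.58). Rcvrn of retina (0.62), Prph of the nervous system (1.20) and Ddx4 of testis were higher too. Among these added genes, only Defb1 and Ddx4 kept their calls in all 7 refits. None of 10 mammary gland genes passed (1 at an unadjusted p under 0.05 by limma).

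**Figure D4:**
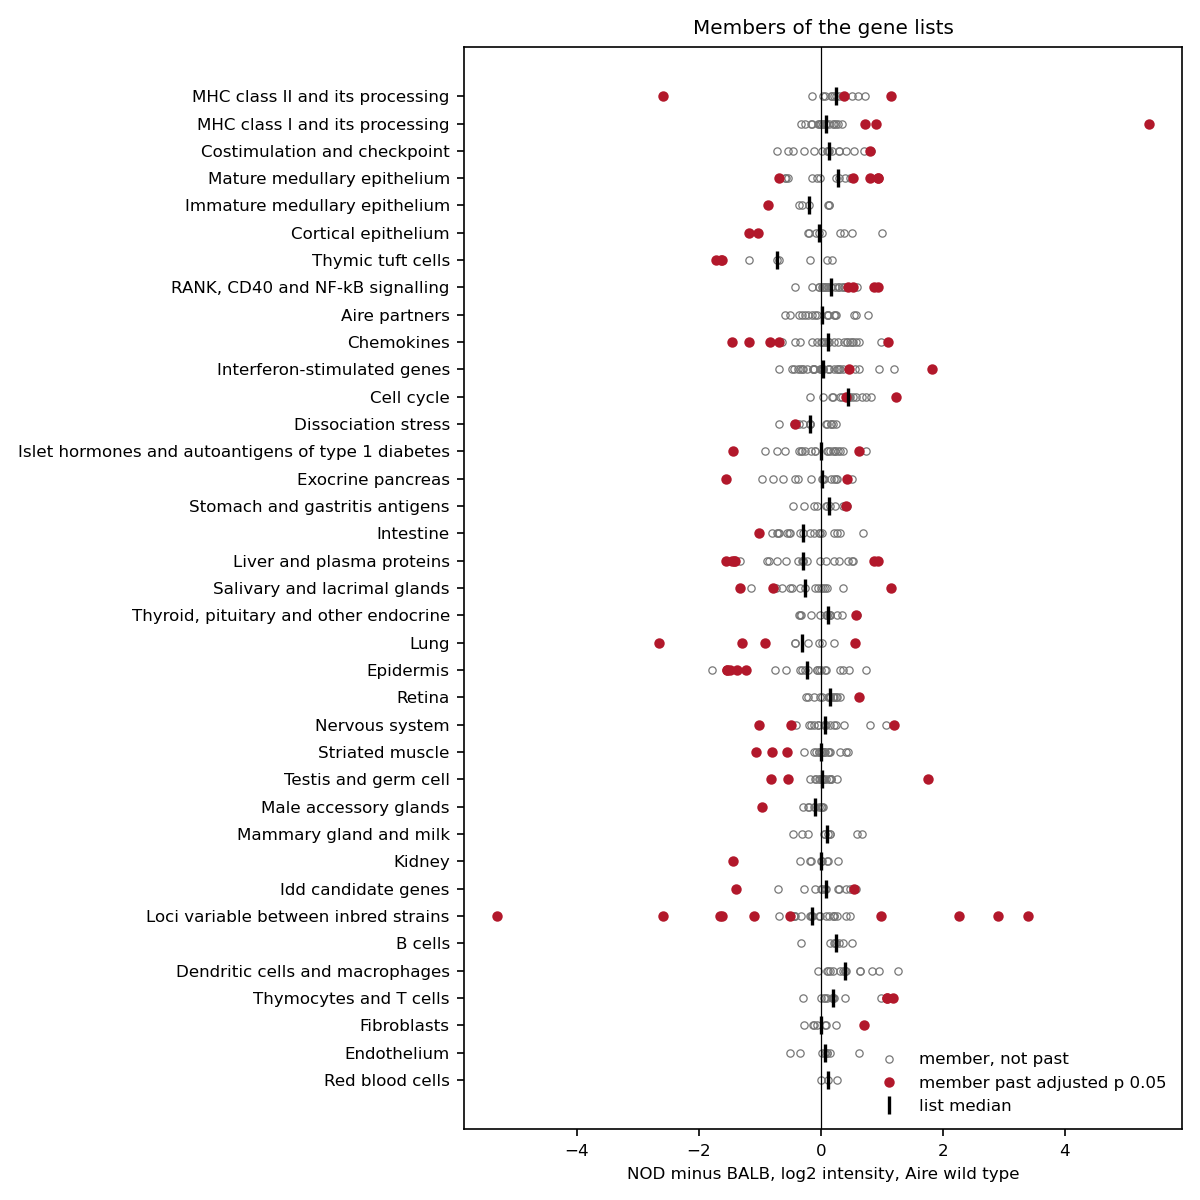
Each row is 1 of 37 gene lists, and each point 1 measured member at its NOD minus BALB difference (log2, horizontal axis) in Aire wild-type mice; filled points passed an adjusted p of 0.05 and the bar is the list's median. The tuft cell list had the median farthest from 0 (-0.72), followed by the cell cycle list (0.45) and the dendritic cell and macrophage list (0.39).

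Aire dependence was read from B6, whose arrays do not enter the size of the strain difference. They do enter the spread between mice behind its p-values, so the shares that passed are not independent of how the genes were chosen. In the 6 B6 arrays alone, 832 genes were at least 2-fold lower in the knockout and past the threshold. Of these, 49 were higher and 143 lower in NOD with Aire intact, 23.1% against 8.28% of all genes, with a median of -0.11. In knockout mice the counts were 42 and 130 (20.7% against 11.3%). A stricter limit of 4-fold left 248 genes, of which 20.2% passed. The genes that passed were more often lower than higher in both genotypes, as were those over all genes (3.03% higher and 5.25% lower with Aire intact, 4.67% and 6.65% in the knockout). Among the 28 largest differences, Ear3, Aox4, Cyp2f2 and Slco1a5 belonged to the 832. Other members lower in NOD were the serotonin receptor Htr1b (-2.23) and the heart transcription factor Tbx20 (-2.19). Others higher were the glutathione transferase Gstm3 (1.94) and the transporter Slc6a15 (1.93).

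The same strain contrast was taken in 3 NOD and 4 BALB Aire knockout mice. It called 3959 probe sets (8.79%) and 2059 genes (11.3%), 849 higher (4.67%) and 1210 lower (6.65%) in NOD. Of the 1507 genes called with Aire intact, 965 were also called in the knockout, which is 64.0% of the former and 46.9% of the latter, and 961 of the 965 had the same sign. In all, 1402 (93.0%) of the 1507 had the same sign in the knockout, against 75.5% of all genes. The 28 largest all kept their sign and 26 passed there, Ear3 (0.47) and Egr3 (-1.43) being the exceptions. Zfp979 differed by 6.60, H2-Q2 by 4.81, Trim12c by -4.61 and H2-Ea by -3.13. The knockout arrays are separate arrays, but wild-type and knockout mice of 1 number deviated together (r from 0.31 to 0.67 over probe sets) and share runs of sample codes, so they are not fully independent.

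The difference between the strain contrasts passed for 100 probe sets (0.222%) and 63 genes (0.346%), none among the 28 largest. This test takes all mice as independent, although wild-type and knockout mice of 1 number deviated together. With the mice of 1 number as a random block (replicate block), 501 probe sets and 322 genes (1.77%) passed, among them all 63 and, of the 28 largest, Ang3, Trim5 and Trim12c. Of the 542 genes called only with Aire intact, 19 passed the test without the block and 106 passed it with the block. The values that follow are without the block. Defb19, a beta-defensin, was -1.97 with Aire intact and 0.22 without (difference -2.18 ± 0.43, limma adjusted p = 0.0420). Serpina9, a protease inhibitor, was 0.77 with Aire intact and 2.86 without. Gstm3 was 1.94 with Aire intact and 0.01 without (1.93 ± 0.27, adjusted p = 0.00580). Apoh, the plasma beta-2-glycoprotein, turned from 0.86 to -1.15. The intestinal fatty acid carrier Fabp1 differed by -0.17 with Aire intact and by -2.79 without. The count of 100, without the block, fell to 49 and 64 probe sets when wild-type NOD mouse 2 or 3 was left out. It fell to 49 and 45 when knockout NOD mouse 1 or 2 was left out.

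**Figure D5:**
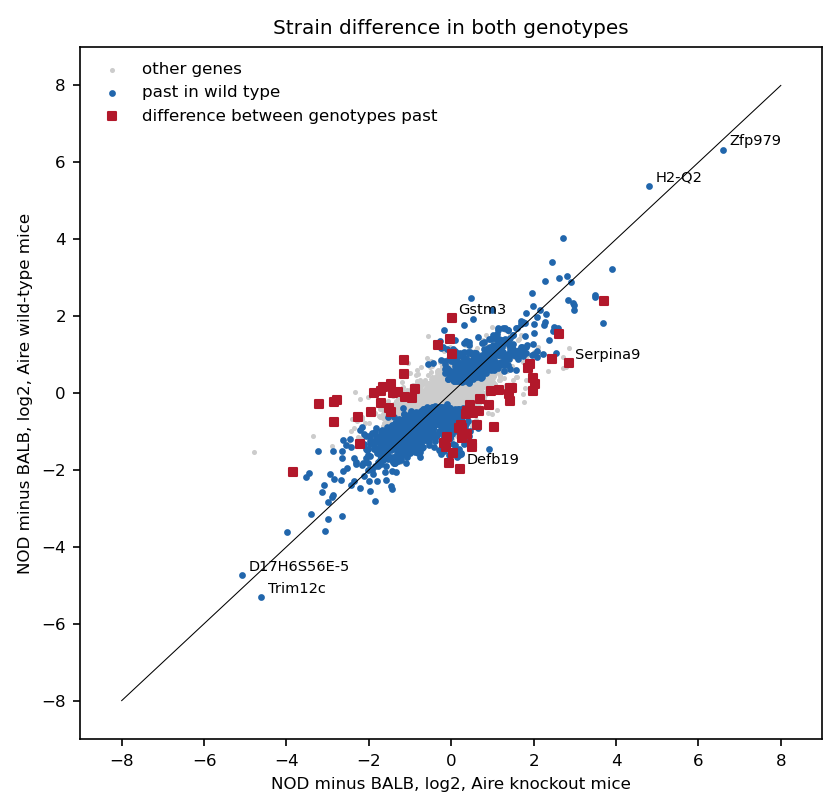
NOD minus BALB (log2) per gene in Aire knockout mice (horizontal axis) and Aire wild-type mice (vertical axis), with the line of equality. Of the 1507 genes that passed with Aire intact, 33 are drawn as red squares and the rest in blue. The red squares (63) passed the test of the difference between the genotypes, without the block. Zfp979, H2-Q2, Trim12c and D17H6S56E-5 lie close to the line.

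Some genes that differed were neighbours. With 18029 genes put in chromosome order, 8 runs of 3 adjacent measured genes all passed with the same sign, and none was longer. Lower in NOD were the aldehyde oxidases Aox1, Aox3 and Aox4 (-0.94, -0.89 and -2.84), the calcium-binding S100a14, S100a16 and S100a3 (-0.96, -0.85 and -1.85), and Asb13, Calml3 and Calm4 (-0.64, -1.79 and -1.57). Also lower were Cd81, Tssc4 and Trpm5 (-1.33, -0.47 and -1.72), Gprc5b, Gp2 and Umod (-0.50, -1.55 and -1.45) and Gm11335, H3c7 and H3c4 (-0.51, -0.96 and -0.77). Higher were Galt, Ccl27a and Gm13306 (0.59, 1.09 and 1.69) and the phosphate transporters Slc17a2, Slc17a3 and Slc17a1 (0.84, 1.40 and 1.70). In the knockout, 21 of these 24 genes passed and 7 of the 8 runs kept 1 sign throughout. Trpm5, of the tuft cell list, thus lay in a run, next to genes that are no tuft markers. Of the 24, Aox3, Galt, Gprc5b, Gp2, Umod, Tssc4, Asb13, Gm11335 and Slc17a3 each lost the call without at least 1 mouse, with adjusted p values up to 0.155.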

How the data were processed

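RNA from 1 thymus per array was amplified in successive rounds and hybridised to a mouse whole-genome array, per the labels' protocols. The deposited values are 1 intensity per probe set and array, made with RMA per the submitters' processing notes. Its version was not stated by any label or header used here. They lie on a linear scale (6.55 to 18395), so log2 was taken. The 20 arrays were fitted as 6 group means with limma 3.58.1 in R 4.3.3 (lmFit, eBayes, 14 residual degrees of freedom), with Benjamini-Hochberg adjustment over all 45037 probe sets. The test was checked on simulated data. Symbols came from the platform annotation: 34945 probe sets had 1 symbol, 932 several and 9160 none listed.

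Named were the 14 largest differences each way that passed without overlap, label checks, up to 5 passing members per list, the 6 largest differences between genotypes and the longest neighbour runs. The members and the 37 lists (564 genes measured) were chosen with earlier results of these data known. Mice are the replicates, and their number limits the precision. Equal numbers did not pair NOD with BALB mice (r of -0.11, 0.13 and -0.16), so the strain contrasts used no block. Wild-type and knockout mice of 1 number did deviate together (r of 0.31 to 0.67 over probe sets), and the blocked value stands beside the test between genotypes. Alternatives were the arrays fitted, normalization, offset, filter, weights, blocks, covariates and leaving out mice. No chance test of a list was made.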

Additional observations from a re-analysis of the deposited data

Results flagged for a closer look

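With 4 BALB mice, 1 mouse can stand far from the other 3, and 7 of the 123 named genes had such a gap. That count is near the about 1 in 20 that chance gives, so it is no result about these genes. Most of them were also chosen for their strain difference. The ratio of the gap to the range was 0.957 for H2-Eb2, 0.937 for Cyp2f2, 0.927 for Cd4, 0.875 for Prph and 0.835 for Aire, all from BALB mouse 4. It was 0.865 for Psmb8 from mouse 3 and 0.840 for H2-Q2 from mouse 2. BALB mouse 4 also had the highest Gapdh 3′ over 5′ difference, 3.04, and its part in these values was not tested. Without it, Aire differed by 0.62 and still passed (limma adjusted p = 0.0230).

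The strain difference itself differed between the genotypes, by the limma test of that difference, for 6 genes named for its size. With Aire intact minus knockout it was 2.93 for 1700110I01Rik, 2.62 for Fabp1, 2.60 for Krt20 and 2.10 for Farp2. It was -2.18 for Defb19 and -2.09 for Serpina9. Of the 6, Defb19 and Serpina9 also passed with Aire intact, Serpina9 at an adjusted p of 0.0384 that was lost in 4 of the 7 refits leaving out 1 mouse.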

How the results depend on the processing

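With Aire intact, the count of 2764 probe sets was 1613 from the 7 arrays alone, 4745 with array weights, 858 within the 3 mice of 1 run of sample codes (an alternative chosen after seeing the data) and 1792 to 2700 without 1 mouse. The 909 at 2-fold became 477 on log2 of intensity plus 50, 1388 with the code run as a block and 773 to 977 without 1 mouse. In the knockout, 3959 became 7475 with array weights and 2296 to 3516 without 1 mouse (chosen after seeing the data). The 100 probe sets that differed between genotypes became 257 with array weights, 209 with the code run, 154 with the Gapdh difference as a covariate and 45 to 108 without 1 mouse. With a replicate block they became 171 (number as a fixed factor) or 501 (wild-type and knockout mice of 1 number as a random block), and the wild-type count 3491 or 2868. The cause of these shifts was not tested. Of the 117 named genes that passed, 63 did so without each mouse in turn, 27 of them among the 28 largest. All 117 kept their sign with the code run as a block (85 passed), and 116 within 1 run (41 passed), where Cd4 turned to -0.078. Neither 1700110I01Rik (0.13 and 0.22) nor Krt20 (0.21 and 0.19) kept its negative sign with the run as a block and within it; neither had passed. No label or header says what the runs of sample codes stand for. NOD mice 2 and 3 and BALB mice 1 and 2 were in runs that held no mouse of the other strain. Strain and run were therefore largely confounded. The block compares the strains only through the run of NOD mouse 1 and BALB mice 3 and 4, with its knockout mice. It is thus no check on all 7 mice that is separate from the within-run values. With the mean of all probe sets of a gene, 88 list members passed in place of 80, 69 of them shared.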

Other observations

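Some genes of motile cilia, the beating hairs of airway and ependymal cells, were lower in NOD with Aire intact, 16 of 49 with 32 that did not pass. The set was chosen after its values were seen and is therefore given without a test of the set. By symbol, the radial spoke (Rsph), cilia and flagella associated (Cfap), axonemal dynein (Dnah), dynein regulatory (Drc) and tektin (Tekt) genes and Foxj1, the transcription factor of motile cilia, came to 49 measured genes. With Aire intact 1, Rsph3a, was higher, and the median was -0.15 (5.25% of all genes were lower and 3.03% higher). In the knockout 2 were lower and 6 higher, with a median of 0.07 (6.65% and 4.67% of all genes). Without 1 mouse the count lower ranged from 9 (without NOD mouse 1) to 15, and it was 10 within the 3 mice of 1 code run.

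Rsph1, a radial spoke protein, read 7.49, 8.07 and 7.86 in NOD and 8.84, 9.28, 9.71 and 9.02 in BALB (-1.40 ± 0.19, limma adjusted p = 0.000169). In knockout mice it read 6.64 to 6.83 in NOD and 5.88 to 6.37 in BALB, below every wild-type mouse. Cfap69 read 5.33, 5.51 and 5.51 in NOD and 6.69, 7.36, 7.41 and 7.64 in BALB (-1.82 ± 0.18), and 3.81 to 4.47 in all 7 knockout mice. The B6 mean of Cfap69 was 6.53 with Aire intact and 4.22 in the knockout. The strain difference differed between genotypes by the limma test for 6 of the 49: Rsph1, Rsph4a, Rsph9, Cfap69, Cfap161 and Cfap206. With mice of 1 number as a random block it did so for 12. All 6 were lower in NOD without each wild-type mouse in turn. Foxj1 was -0.61 ± 0.16 with Aire intact, lost its call in 4 of the 7 refits (adjusted p up to 0.0881), and did not pass the test between genotypes (adjusted p = 0.628, or 0.0704 with that block).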
